A study of Mus musculus with 8 samples.

Results

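The creatine kinase energy shuttle was followed in the left ventricle (LV) of mice through 8 genes of 46040 in the count table. They were the rows named *Ckm*, *Ckb*, *Ckmt2*, *Ckmt1*, *Slc6a8*, *Ak1*, *Slc25a4* and *Slc25a5*. The rule for membership was the gene name. All 8 LV libraries came from male C57BL/6 mice aged 5 to 7 months that had received angiotensin II (angII) at 0.1 mg/kg/h, a model of pressure overload, and were taken at day 14. Of these, 4 libraries named WT2 carry the genotype tag wildtype, and 4 named dVEGFR1TK2 carry the tag for VEGFR-1 TK-/-. VEGFR-1 TK-/- mice lack the intracellular tyrosine kinase domain of VEGFR-1, the product of *Flt1*, in all cells, and the controls were their littermates. Mice without angII were not analysed here, so the values compare genotypes under angII and do not show the response to angII. Only animals alive at day 14 could give a library.

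In cardiac muscle, ATP made in mitochondria leaves the matrix through the ADP/ATP translocases of the inner membrane. Mitochondrial creatine kinase then passes its phosphate to creatine. Phosphocreatine diffuses to the myofibrils, where cytosolic creatine kinase returns the phosphate to ADP beside the ATPases that spend it. Creatine is not made in quantity by cardiomyocytes and enters them through a plasma membrane transporter, and adenylate kinase runs a parallel shuttle by turning ADP into ATP and AMP. A fall of muscle-type creatine kinase with a rise of the brain type is a known feature of many failing hearts.

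Every sample title names the other genotype than its tag and its library name. Libraries were grouped by tag and library name, and each difference changes its sign, but not its size or p, if the titles are right. Library names also say cardiomyocytes, while the source is given as LV tissue. Total counts lay between 11449137 and 16239670 per library. The targeted gene *Flt1* was at 67.4, 68.4, 56.9 and 84.3 normalized CPM (counts scaled to a common library size, adjusted with TMM factors) in WT2 libraries 1 to 4. It was at 144, 149, 169.6 and 168 in dVEGFR1TK2 libraries 1 to 4, so the groups did not overlap (log2 fold change 1.19, SE 0.12, FDR = 0.00808 in edgeR's quasi-likelihood test). Counts per gene do not show whether the deleted exons were read, so this value does not check the labels. The summed normalized CPM of 7 cardiomyocyte markers ran from 49591 in WT2 library 2 to 84369 in dVEGFR1TK2 library 3, and *Myh2* and *Myh4*, fast myosins of skeletal muscle, had no read in any library.

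No difference between the genotypes was detected in any tested member of the shuttle. Of 8 members, 7 passed the filter on low counts. A gene was called when its FDR was under 0.1 and its log2 fold change reached 0.585 in either direction, and 0 of these 7 were called by the quasi-likelihood test. Over all 13542 genes tested, 0.00738% were called, which was 1 gene, *Flt1*. The likelihood ratio test called 0.391% and DESeq2 0.236% of all genes, and 0 of the members. Among the members, 0 had an unadjusted p under 0.05, against 8.96% of all genes (5.64% lower and 3.32% higher in dVEGFR1TK2). Likewise 0 had groups that did not overlap, against 4.98% of all genes. The log2 fold change of dVEGFR1TK2 against WT2 was below 0 in 4 members, against 50.3% of all genes, and above 0 in 3. Its median was -0.0077, beside -0.0012 over all genes. The 95% intervals of all 7 tested members lay between -0.55 and 0.48, inside the fold change of 0.585 that a call needs. Exact 2-sided permutation tests over samples, with 70 arrangements, gave p between 0.543 and 0.943, where the smallest p the design allows is 0.0286. The labels do not say that each library is a separate animal, so these p-values measure only the spread between libraries.

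**Figure D1:**
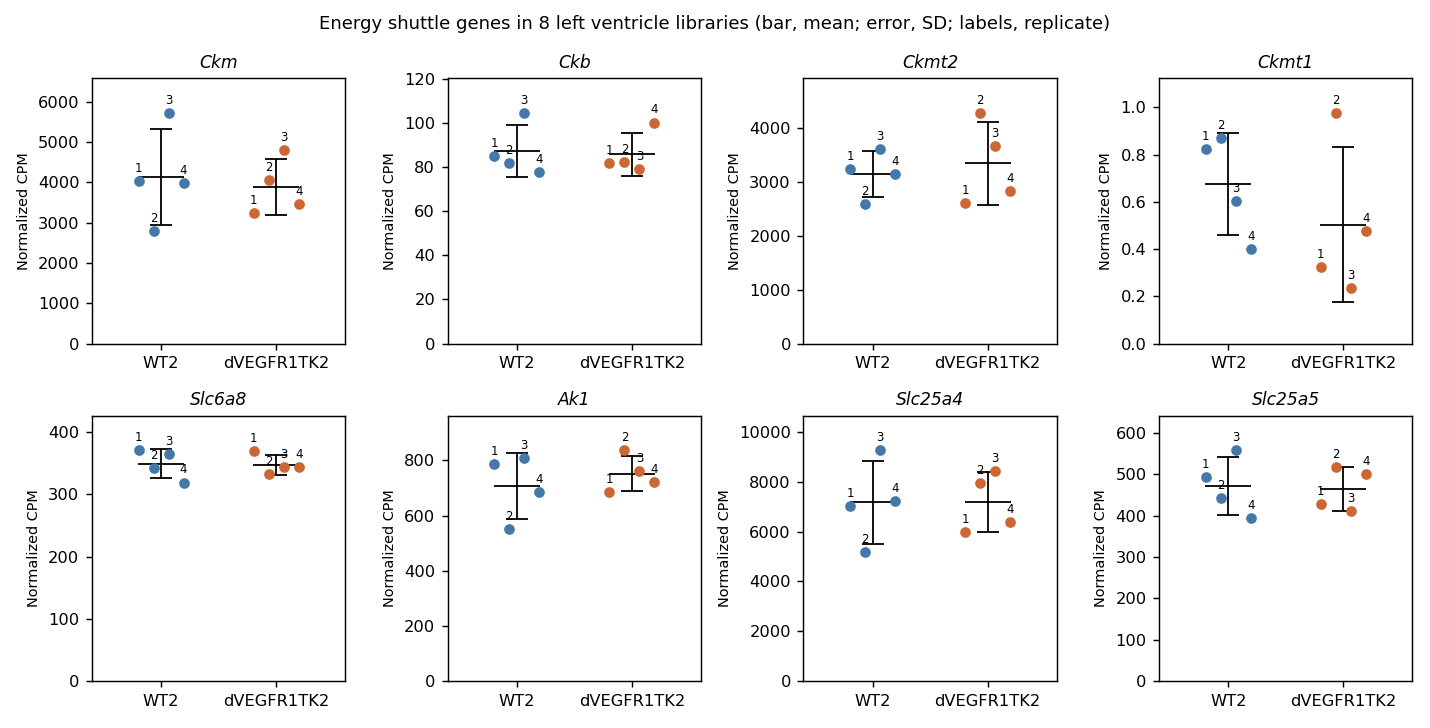
Normalized CPM (y axis, from 0) of each of the 8 members in the 4 WT2 and 4 dVEGFR1TK2 libraries (x axis). Points are libraries numbered by replicate, bars are means and error bars are SDs; in every panel the groups overlap, as for *Ckm*, with means of 4138 and 3898.

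The upstream sequences of 5 members are given as a description, and no result below was tested against them. *Ckm*, *Slc25a4* and *Ckmt2* are the most abundant members. *Ckb* and *Slc25a5* had the smallest spread of their count ratio after *Ckm* and *Slc25a4*, a measure chosen after the values were seen. RefSeq promoters (GRCm38.p6) were matched for 7 of 8 members, and *Slc6a8* had no entry. Each line holds the 120 bases before the RefSeq start, 5′ to 3′ on the strand of the gene. The GENCODE starts of *Ckm* (19404776) and *Slc25a4* (46211284) lie further upstream, so their windows are inside the annotated genes. Capitals mark a TATA box (TATAAA or TATATA) or an E-box (CANNTG), searched on both strands, with any overlap allowed. The windows are chr7:19410974-19411093, plus strand, for *Ckm*, chr8:46211063-46211182, minus strand, for *Slc25a4*, chr13:91876886-91877005, minus strand, for *Ckmt2*, chr12:111672339-111672458, minus strand, for *Ckb*, and chrX:36795477-36795596, plus strand, for *Slc25a5*.
Ckm: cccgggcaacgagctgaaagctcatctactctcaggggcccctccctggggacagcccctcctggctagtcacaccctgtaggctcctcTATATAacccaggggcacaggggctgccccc
Slc25a4: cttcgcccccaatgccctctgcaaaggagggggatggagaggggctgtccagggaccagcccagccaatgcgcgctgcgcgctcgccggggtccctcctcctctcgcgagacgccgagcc
Ckmt2: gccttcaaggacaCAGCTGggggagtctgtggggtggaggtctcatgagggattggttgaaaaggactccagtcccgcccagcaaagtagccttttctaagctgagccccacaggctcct
Ckb: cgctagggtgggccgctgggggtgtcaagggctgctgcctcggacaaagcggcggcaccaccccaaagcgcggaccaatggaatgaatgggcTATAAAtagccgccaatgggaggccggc
Slc25a5: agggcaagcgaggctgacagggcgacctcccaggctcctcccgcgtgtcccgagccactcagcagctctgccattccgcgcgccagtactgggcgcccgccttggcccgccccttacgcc
*Ckm* has a TATA box that begins 31 bases before the start, and *Ckb* one at 28 bases. *Ckmt2*, *Slc25a4* and *Slc25a5* have none of these letters in the 250 bases searched, and 15.6% of 32851 RefSeq promoters have them. E-boxes, which bind muscle factors of the MyoD family among many others, were found 4 times in the 250 bases of *Ckmt2*, 2 times for *Slc25a5*, 1 time each for *Ckm* and *Slc25a4*, and 0 times for *Ckb*. An E-box occurs in 66.2% of the promoters. The letters CCAAT occur 2 times each for *Ckb*, *Ckmt2* and *Slc25a4* and 0 times for *Ckm* and *Slc25a5*, against 33.85% of promoters with at least 1 match. The half-site AAGGTCA, present in 4.08% of promoters, was in none of these 5. Among the matched members not shown, it occurs in a promoter of *Ak1*, 90 bases before the start. It also occurs in a promoter of *Ckmt1*, 179 bases before the start, which has a TATA box at 31 bases. Both genes have other RefSeq promoters without the half-site. A match describes letters only, and binding was not measured.

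*Ckm* (ENSMUSG00000030399, chromosome 7, 19404776 to 19422841, plus strand, GRCm38) encodes the muscle-type creatine kinase of the cytosol and the M-line. It was at 4045, 2803, 5725 and 3979 normalized CPM in WT2 libraries 1 to 4, and at 3252, 4069, 4804 and 3467 in dVEGFR1TK2 libraries 1 to 4. WT2 library 2 was the lowest and WT2 library 3 the highest of all 8, so the dVEGFR1TK2 values fell within the WT2 range. The means were 4138 ± 1202 and 3898 ± 696 (SD, n = 4 each). The log2 fold change was -0.09 (SE 0.21, 95% interval -0.55 to 0.38), a fold between 0.682 and 1.30, with FDR = 0.931. *Ckm* was more variable than most genes: 79.7% of the genes tested had a smaller SD within the groups, and its biological coefficient of variation was 20.2%, above the 15.3% fitted for genes of its abundance. At 38614 to 85122 reads per library, counting error is a negligible part of that spread. An antisense gene, *A930016O22Rik*, shares 451 exon bases with *Ckm* and had 5 to 64 reads, at most 0.0752% of the *Ckm* reads of a library. How strand was counted is not known, so this does not show how many *Ckm* reads went uncounted.

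*Ckb* (ENSMUSG00000001270, chromosome 12, 111669361 to 111672338, minus strand) encodes the brain-type cytosolic creatine kinase, which prevails in the embryonic heart and rises in many models of hypertrophy. It was at 85.3, 81.95, 104.6 and 77.9 normalized CPM in WT2 libraries 1 to 4. In dVEGFR1TK2 libraries 1 to 4 it was at 81.75, 82.2, 79.2 and 100.3. One library in each group, WT2 library 3 and dVEGFR1TK2 library 4, stood above the other 6, and the groups overlapped. The means were 87.4 ± 11.8 and 85.9 ± 9.69, with a log2 fold change of -0.03 (SE 0.12, 95% interval -0.28 to 0.23, FDR = 0.962).

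*Ckmt2* (ENSMUSG00000021622, chromosome 13, 91853387 to 91876885, minus strand) encodes the sarcomeric mitochondrial creatine kinase of the intermembrane space. It was at 3237, 2581, 3607 and 3145 normalized CPM in WT2 libraries 1 to 4, and at 2605, 4268, 3661 and 2825 in dVEGFR1TK2 libraries 1 to 4. The highest 2 values were dVEGFR1TK2 libraries 2 and 3, but the second lowest was dVEGFR1TK2 library 1. The means, 3143 ± 424 and 3340 ± 768, differed by a log2 fold change of 0.09 (SE 0.18, 95% interval -0.31 to 0.48, FDR = 0.915). *Ckmt2* spread more within dVEGFR1TK2 (coefficient of variation 23.0%) than within WT2 (13.5%), while *Ckm* did the opposite (17.9% and 29.1%). The difference between these spreads was not tested.

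*Ckmt1* (ENSMUSG00000000308, chromosome 2, 121357714 to 121363737, plus strand) encodes the ubiquitous mitochondrial creatine kinase of brain, gut and other non-muscle tissues. It had few reads, with 11, 12, 9 and 5 in WT2 libraries 1 to 4 and 4, 11, 3 and 6 in dVEGFR1TK2 libraries 1 to 4, or 61 reads in all. It did not reach a CPM of 1 in any library and was left out of the main test. Fitted without the filter on low counts, it had a log2 fold change of -0.44 (SE 0.49, FDR = 0.779 in edgeR's quasi-likelihood test).

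*Slc6a8* (ENSMUSG00000019558, chromosome X, 73673150 to 73682502, plus strand) encodes the creatine transporter of the plasma membrane. It was at 370.8, 343.0, 364.9 and 319.1 normalized CPM in WT2 libraries 1 to 4 and at 370.1, 332.3, 343.3 and 344.7 in dVEGFR1TK2 libraries 1 to 4. It was the steadiest member, since its highest library was 1.16 times its lowest and only 5.27% of the genes tested had a smaller SD within the groups. The means were 349 ± 23.5 and 348 ± 16.01. The log2 fold change of -0.0077 (SE 0.09, 95% interval -0.21 to 0.20, FDR = 0.987) has the narrowest interval of the 7.

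*Ak1* (ENSMUSG00000026817, chromosome 2, 32621758 to 32635058, plus strand) encodes the main cytosolic adenylate kinase of muscle. It was at 786.8, 549.7, 808.6 and 683.8 normalized CPM in WT2 libraries 1 to 4, and at 685.6, 836.5, 762.4 and 723.1 in dVEGFR1TK2 libraries 1 to 4. As for *Ckm*, WT2 library 2 was the lowest of all, and the other 7 libraries lay between 683.8 and 836.5. The means of 707 ± 118 and 752 ± 64.6 gave a log2 fold change of 0.09 (SE 0.14, 95% interval -0.21 to 0.39, FDR = 0.876).

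*Slc25a4* (ENSMUSG00000031633, chromosome 8, 46206797 to 46211284, minus strand) encodes the ADP/ATP translocase of heart and skeletal muscle. It was at 7036, 5195, 9262 and 7234 normalized CPM in WT2 libraries 1 to 4 and at 5976, 7947, 8438 and 6399 in dVEGFR1TK2 libraries 1 to 4. Again WT2 libraries 2 and 3 were the lowest and the highest, and the means of 7182 ± 1663 and 7190 ± 1187 were close to equal (log2 fold change 0.0017, SE 0.20, 95% interval -0.43 to 0.44, FDR = 0.998).

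*Slc25a5* (ENSMUSG00000016319, chromosome X, 36795651 to 36798807, plus strand) encodes the translocase found in most proliferating and non-muscle cells. It was at 493.2, 443.2, 557.6 and 393.3 normalized CPM in WT2 libraries 1 to 4 and at 426.7, 517.2, 410.6 and 499.6 in dVEGFR1TK2 libraries 1 to 4. The groups overlapped over most of their range. The means were 472 ± 70.2 and 464 ± 52.7 (log2 fold change -0.03, SE 0.13, 95% interval -0.31 to 0.26, FDR = 0.970). *Slc25a5* has 9 near-identical pseudogenes in the table (at least 90% identity over at least 100 bases), which held 47 reads in all, or 0.097% of its own. *Ckb* has 3 with 7 reads. How reads with several alignments were counted is not known, so these counts do not show how many reads of either gene went uncounted.

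**Figure D2:**
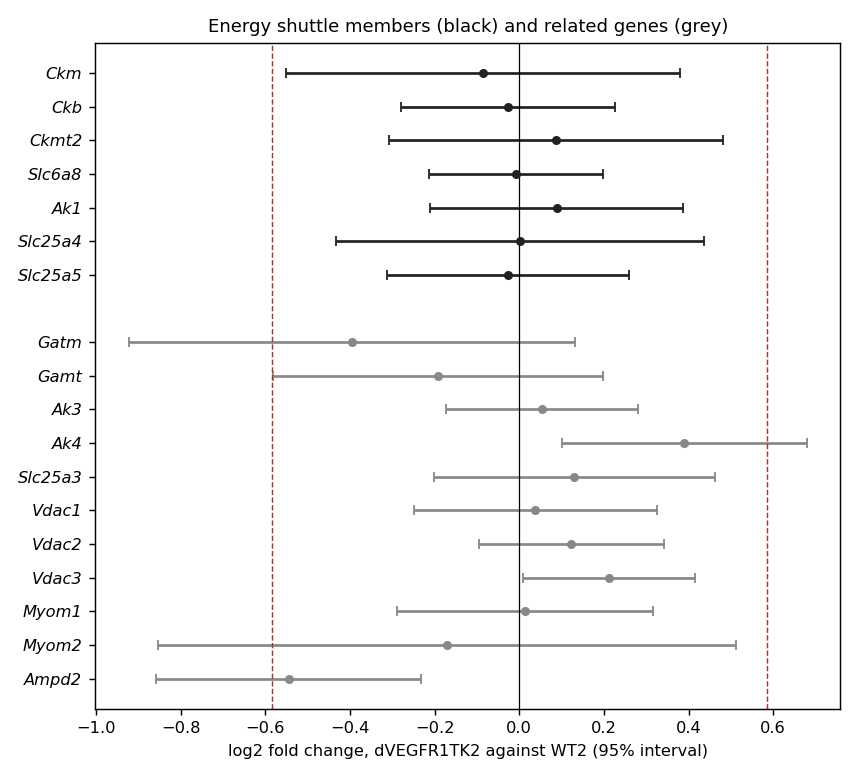
Log2 fold change of dVEGFR1TK2 against WT2 (x axis) with its 95% interval for the 7 tested members (black) and 11 related genes (grey), from edgeR's quasi-likelihood fit. Dashed lines mark plus and minus 0.585; every interval of the members includes 0 and lies inside the lines, between -0.55 and 0.48.

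Levels of different genes were compared as normalized CPM per kilobase of exon. The order was *Slc25a4* (3054), *Ckmt2* (2181), *Ckm* (1379), *Slc25a5* (284), *Ak1* (281), *Slc6a8* (66.9), *Ckb* (29.9) and *Ckmt1* (0.236). *Slc25a4* was above *Ckmt2*, and *Ckmt2* above *Ckm*, in 8 of 8 libraries, although in each case the ranges overlapped between libraries. *Slc25a5* was above *Ak1* in only 3 of 8 libraries, so this pair did not differ beyond its spread. Each other neighbour in the order was separated in 8 of 8 libraries with no overlap. The place of *Ckm* below *Ckmt2* rests on the exon length of 2913 bases, which counts every annotated transcript. With its shortest coding transcript (1235 bases), *Ckm* would be at 3253, above *Ckmt2*.

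By this measure creatine kinase transcripts of the LV were of the muscle forms. *Ckmt2* made up 54.8% to 66.8% and *Ckm* 32.5% to 44.4% of the 4 creatine kinase genes in a library. *Ckb* made up 0.661% to 1.11%, and *Ckmt1* at most 0.0128%. The order of the first pair turns with the length used: with the shortest coding transcripts *Ckm* made up 52.9% to 65.0% and *Ckmt2* 34.0% to 46.1%. By reads alone *Ckm* held 48.3% to 60.7% and *Ckmt2* 38.2% to 50.7%. With the longest coding transcripts *Ckb* made up at most 2.11% and *Ckmt1* at most 0.0191%. Bulk RNA does not show which cells hold the *Ckb* transcripts, and fewer cells of a type cannot be told apart from less RNA per cell. All 8 members together took 1.34% to 1.87% of the counts in WT2 libraries and 1.38% to 1.78% in dVEGFR1TK2 libraries.

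The balance between isoforms was compared as the ratio of their levels per exon length within a library, which does not depend on how libraries are scaled. *Ckb* per *Ckm* was 2.12%, 2.94%, 1.84% and 1.97% in WT2 libraries 1 to 4, and 2.53%, 2.03%, 1.66% and 2.91% in dVEGFR1TK2 libraries 1 to 4. The means were 2.22% ± 0.497 and 2.28% ± 0.549, and the groups overlapped (exact permutation p = 0.914). With the longest coding transcripts the means were 4.11% ± 0.919 and 4.23% ± 1.02, since a length changes the ratio by the same factor in every library and leaves the test as it was. *Ckmt2* per *Ckm* was 154% ± 23.4 in WT2 and 168% ± 25.5 in dVEGFR1TK2 (log2 difference 0.13, exact permutation p = 0.429). No shift between the cytosolic isoforms, or between the cytosolic and mitochondrial ends of the shuttle, exceeded the spread between libraries.

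For the translocases, *Slc25a5* per *Slc25a4* was 10.02%, 12.2%, 8.61% and 7.77% in WT2 libraries 1 to 4, and 10.2%, 9.30%, 6.96% and 11.2% in dVEGFR1TK2 libraries 1 to 4 (means 9.65% ± 1.94 and 9.41% ± 1.80, exact permutation p = 0.857). *Slc25a4* per *Ckmt2*, which sets the exit of ATP beside its first user, was 143% ± 14.8 and 138% ± 13.5 (exact permutation p = 0.657). *Slc6a8* per *Ckm* was 5.004% ± 1.38 and 5.12% ± 1.05 (exact permutation p = 0.8286). *Ak1* per *Ckm*, the adenylate kinase arm beside the creatine kinase arm, was 19.8% ± 2.88 and 22.01% ± 2.80 (exact permutation p = 0.343), or 10.7% ± 1.56 and 11.9% ± 1.51 with the shortest coding transcripts. Its log2 difference of 0.16 depended on single libraries. It was 0.26 without dVEGFR1TK2 library 3 (exact permutation p = 0.0857, unadjusted) and 0.06 without WT2 library 3 (exact permutation p = 0.657, unadjusted). The largest difference, -0.64 on the log2 scale for *Ckmt1* per *Ckmt2* (exact permutation p = 0.229), rests on 3 to 12 *Ckmt1* reads per library. Adjusted over the 7 ratios, every p was 0.914, and the groups overlapped in all 7.

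**Figure D3:**
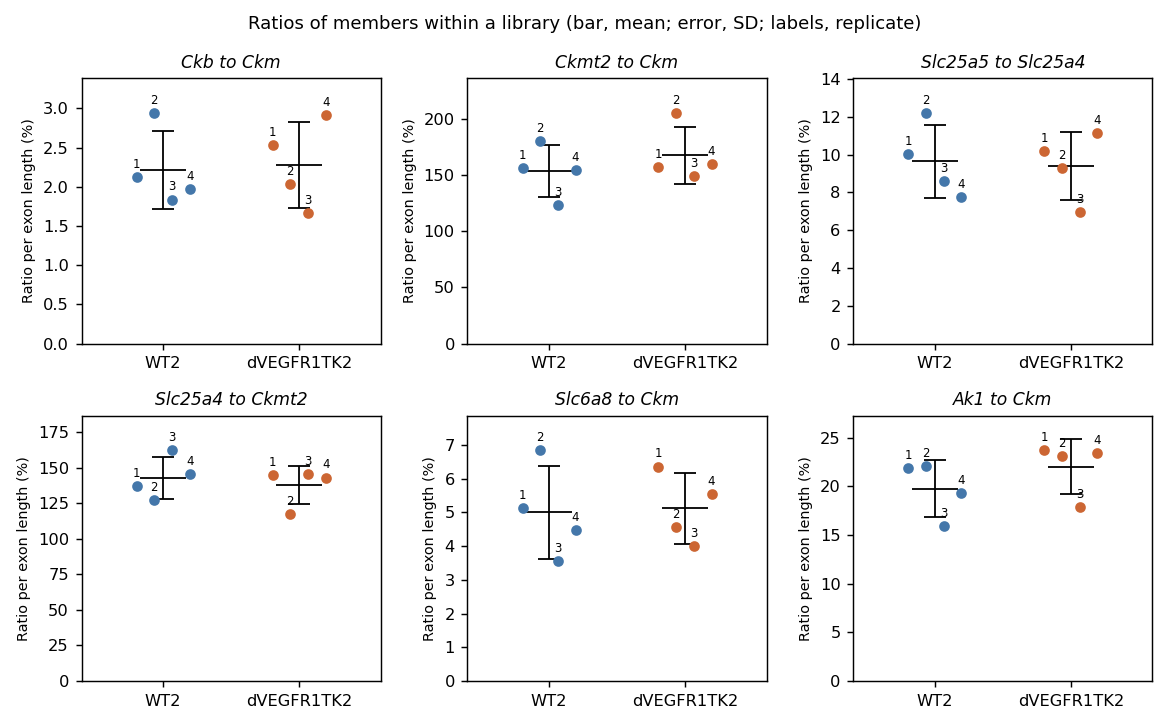
Ratio of members within a library, in percent and scaled by exon length (y axis, from 0), in the 4 WT2 and 4 dVEGFR1TK2 libraries (x axis). Points are libraries numbered by replicate, bars are means and error bars are SDs; *Ckb* per *Ckm* had means of 2.22% and 2.28%, and the groups overlap in each panel.

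Several members rose and fell together from library to library, in both groups. Pearson's r of log2 normalized CPM was computed over the 8 libraries for the 21 pairs of tested members, with exact permutation p over 40320 pairings, and 5 pairs had an adjusted p under 0.05. With counts scaled by total counts instead, only 1 pair did, *Ckm* and *Slc25a4*. For this pair r was 0.977 (exact permutation p = 0.000174, adjusted p = 0.00365) and Spearman's rho 0.976 (exact permutation p = 0.000397, adjusted p = 0.00833). It was 0.953 without WT2 libraries 2 and 3, the farthest from the *Ckm* median, 0.985 on deviations from the group means, and 0.954 with total counts. The muscle kinase and the muscle translocase thus kept nearly 1 ratio while each varied: *Slc25a4* had 1.74, 1.85, 1.62 and 1.82 reads per *Ckm* read in WT2 libraries 1 to 4, and 1.84, 1.95, 1.76 and 1.85 in dVEGFR1TK2 libraries 1 to 4. The highest of these is 1.21 times the lowest, beside 2.04 times for *Ckm* itself. The share of correlated pairs among all genes was not computed. Outside the members, *Specc1l*, *Tnnc1* and *Ndufb8* had a higher r with *Ckm* (0.994, 0.993 and 0.992), so the correlated pairs do not set the members apart.

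*Ckmt2* followed the same pattern less tightly. Its r with *Slc25a4* was 0.861 (exact permutation p = 0.00702, adjusted p = 0.0495), its rho 0.881 (exact permutation p = 0.00724, adjusted p = 0.0380), and r without WT2 library 2 and dVEGFR1TK2 library 2 was 0.953. Its r with *Ak1* was 0.811 (exact permutation p = 0.0112, adjusted p = 0.0495), its rho 0.857 (exact permutation p = 0.0107, adjusted p = 0.0450), and r without the same 2 libraries 0.745. *Ak1* and *Slc25a4* had an r of 0.837 (exact permutation p = 0.00796, adjusted p = 0.0495) but a rho of 0.714 (exact permutation p = 0.0576, adjusted p = 0.173), and r without the same 2 libraries was 0.721. With total counts these 3 values of r were 0.738, 0.649 and 0.588, with adjusted p between 0.143 and 0.316. *Ckm* and *Ckmt2* had an r of 0.755 (exact permutation p = 0.0288, adjusted p = 0.0864), so the ends of the shuttle met the threshold by rho (0.905, adjusted p = 0.0319) and not by r. With total counts they met it by neither (r 0.539, adjusted p = 0.384, and rho 0.762, adjusted p = 0.129).

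The non-muscle isoforms formed another pair. *Ckb* and *Slc25a5* had an r of 0.785 (exact permutation p = 0.0118, adjusted p = 0.0495) and a rho of 0.929 (exact permutation p = 0.00223, adjusted p = 0.0234). Their r was 0.813 without WT2 library 3 and dVEGFR1TK2 library 4, and 0.769 with total counts (exact permutation p = 0.0262, adjusted p = 0.143). *Ckb* and *Ckm* had an r of 0.352 (exact permutation p = 0.390, rho 0.262), which was -0.478 without WT2 libraries 2 and 3, and *Slc25a5* and *Slc25a4* had an r of 0.351 (exact permutation p = 0.387, rho 0.262), which was -0.07 without them. Within each family, the relation of the muscle to the non-muscle isoform was weak and changed its sign without these libraries. *Slc6a8* and *Ckm* had an r of 0.103 (exact permutation p = 0.807, rho 0.0476), which was -0.730 with total counts (exact permutation p = 0.0410, adjusted p = 0.143), so its sign depends on the scaling.

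A measure that no scaling can change, chosen after the values were seen, is the SD of the log2 ratio of counts over the 8 libraries. It was smallest for *Ckm* and *Slc25a4* (0.08), then *Ckb* and *Slc25a5* (0.11), *Ckmt2* and *Slc25a4* (0.14) and *Ckb* and *Slc6a8* (0.15). It was largest of the 21 pairs for *Ckm* and *Slc6a8* (0.32). WT2 library 2, lowest in *Ckm*, *Ckmt2*, *Ak1* and *Slc25a4*, also had the lowest sum of the 7 cardiomyocyte markers (49591, against 63302 to 84369 in the other 7) and the highest sum of the 5 fibroblast markers (1540, against 564 to 1310). The part of marker content in the correlations was not tested.

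**Figure D4:**
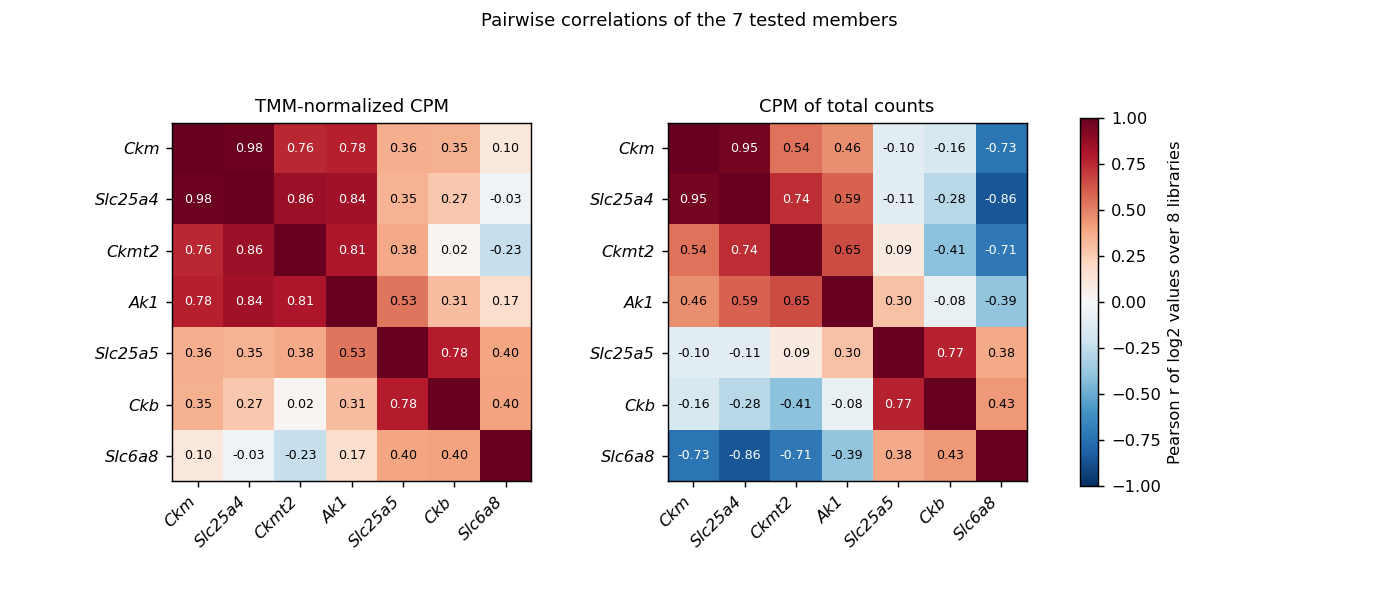
Pearson's r of log2 values over the 8 libraries for each of the 21 pairs of the 7 tested members (both axes list genes), with TMM-normalized CPM on the left and CPM of total counts on the right; colour runs from -1 (blue) to 1 (red). *Ckm* and *Slc25a4* have the highest r on both sides (0.977 and 0.954), while *Ckm* and *Slc6a8* change from 0.103 to -0.730.

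**Figure D5:**
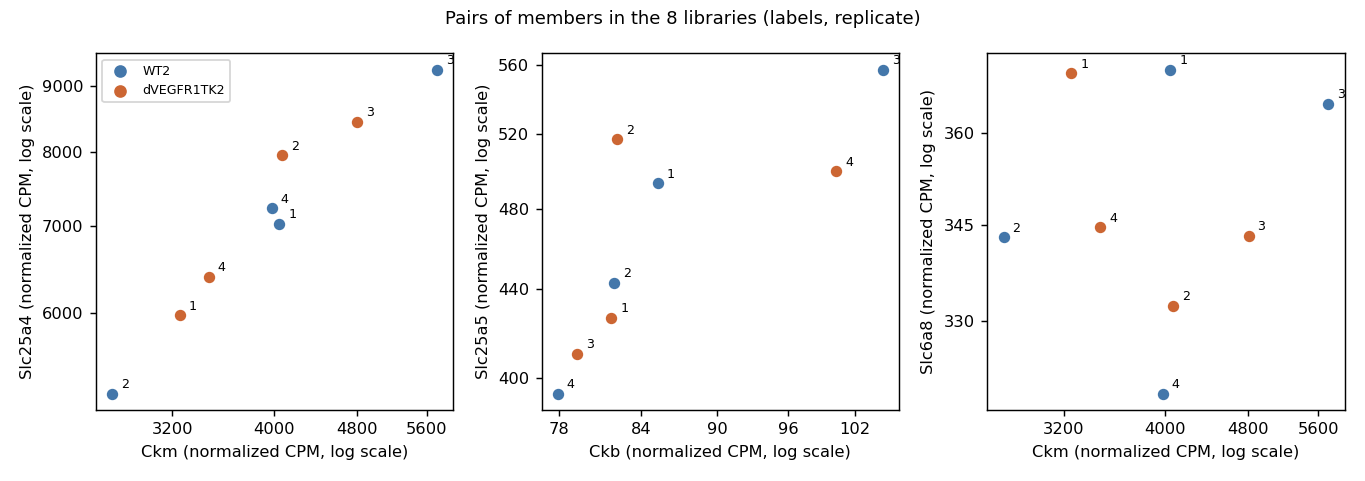
Normalized CPM of 3 pairs of members in the 8 libraries, on log axes, with points numbered by replicate and coloured by group. *Slc25a4* against *Ckm* (r = 0.977) and *Slc25a5* against *Ckb* (r = 0.785) rise together over the libraries, and *Slc6a8* against *Ckm* (r = 0.103) does not.

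Among all 13542 genes tested, those whose pattern over the 8 libraries was most like *Ckm* were *Specc1l* (r = 0.994), *Tnnc1* (r = 0.993), the troponin C of the heart, and *Ndufb8* (r = 0.992), a subunit of respiratory complex I. Among those most like *Slc25a4* were *2310045N01Rik* (0.994) and *Fth1* (0.989), the heavy chain of ferritin. *Ckmt2* was nearest to *RP24-487F9.4* (0.970), *Echdc3* (0.967) and *Iars2* (0.962), the mitochondrial isoleucyl-tRNA synthetase. *Ckb* was nearest to *B230219D22Rik* (0.953), *Krtcap2* (0.932), a subunit of oligosaccharyltransferase, and *Pigq* (0.930), of the synthesis of GPI anchors. These are the highest of many correlations over few libraries and are given as a description.

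Other genes of energy transfer were read from a list of 26, of which 19 passed the filter. None of the 19 was called, 3 had an unadjusted p under 0.05 (15.8%, against 8.96% of all genes), and the median log2 fold change was 0.01. *Ak4*, an adenylate kinase of the mitochondrial matrix, was at 31.9, 31.0, 21.8 and 25.3 normalized CPM in WT2 libraries 1 to 4 and at 38.2, 40.1, 32.4 and 33.5 in dVEGFR1TK2 libraries 1 to 4. Every dVEGFR1TK2 library was above every WT2 library (27.5 ± 4.78 and 36.0 ± 3.71, log2 fold change 0.39, SE 0.13), but its FDR was 0.468 in edgeR's quasi-likelihood test. *Vdac3*, a pore of the mitochondrial outer membrane, was likewise at 243 ± 19.9 and 281 ± 8.97 with no overlap (log2 fold change 0.21, SE 0.09, FDR = 0.544).

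*Ampd2*, a non-muscle AMP deaminase, went the other way, from 16.7, 16.2, 24.1 and 16.6 normalized CPM in WT2 libraries 1 to 4 to 12.0, 13.4, 12.1 and 12.99 in dVEGFR1TK2 libraries 1 to 4. Its groups did not overlap either (log2 fold change -0.54, SE 0.14, FDR = 0.442). Groups that do not overlap fix the exact permutation p at 0.0286, the smallest the design allows, so this p adds nothing for these 3 genes. They were the only genes without overlap among the 19 tested, against 4.98% of all genes, and 0 of the 3 were called in any of 16 alternative fits. *Ampd3* (60.3 and 63.7 normalized CPM on average), the other AMP deaminase tested, had a log2 fold change of 0.08.

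Neither gene of creatine synthesis was called. *Gatm*, whose enzyme makes guanidinoacetate, was at 3.62 ± 0.619 and 2.75 ± 0.879 normalized CPM (log2 fold change -0.39, SE 0.24, FDR = 0.653). *Gamt*, whose enzyme methylates it to creatine, was at 5.29 ± 0.707 and 4.62 ± 0.778 (log2 fold change -0.19, SE 0.18, FDR = 0.777).

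Of 8 other adenylate kinases 4 were tested, among them, besides *Ak4*, *Ak3* with a log2 fold change of 0.05 and *Ak6* with one of -0.0035. Of 8 other genes of mitochondrial exchange 7 were tested, among them the phosphate carrier *Slc25a3* (0.13, SE 0.15) and the pores *Vdac1* (0.04) and *Vdac2* (0.12). The 4 anchors of creatine kinase in the sarcomere were all tested and none had an unadjusted p under 0.05. Of these, *Myom1*, a myomesin of the M-line, had a log2 fold change of 0.01 and *Myom2* one of -0.17 (SE 0.31), with groups at 1940 ± 893 and 1723 ± 353 normalized CPM.

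Of 10 regulators of muscle and mitochondrial genes, all tested, 1 had an unadjusted p under 0.05, a share near the 8.96% of all genes. It was *Ppargc1a*, a coactivator of mitochondrial genes, and it is named after its values were seen. It was at 112, 73.1, 81.8 and 112 normalized CPM in WT2 libraries 1 to 4 and at 131, 118, 150.4 and 156 in dVEGFR1TK2 libraries 1 to 4, with no overlap (log2 fold change 0.55, SE 0.15, FDR = 0.442). It was called in 0 of 16 alternative fits, with FDR from 0.109 to 0.941.

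None of the marker genes of cardiomyocytes or other cell types was called. Of 5 endothelial markers 3 were lower at an unadjusted p under 0.05, against 5.64% of all genes, and their sum was 916 to 1191 normalized CPM in WT2 libraries and 855 to 962 in dVEGFR1TK2 libraries. Leukocyte markers summed to 108 to 145 and 75.6 to 114, with 1 of 6 lower at that threshold, and 0 of 5 fibroblast markers passed it (1048 to 1540 and 564 to 1310). Of the 7 cardiomyocyte markers 1 was higher at that threshold, with sums of 49591 to 77784 and 63302 to 84369. Smooth muscle markers summed to 540 to 1020 and 468 to 711, atrial markers to 787 to 1310 and 503 to 1431, red blood cell markers to 279 to 709 and 330 to 548, and neural and glial markers to 8.64 to 11.7 and 5.68 to 12.8, with 0 genes of these lists past it. The atrial sums were almost all *Nppa* (784 to 1306 and 498 to 1425), so they do not measure atrial tissue. The other atrial markers, *Myl4*, *Myl7* and *Sln*, reached at most 4.86, 1.23 and 0.266. Skeletal muscle markers reached at most 4.91 and adipocyte markers 0.218, with *Plin1* and *Lep* at 0 in every library. The part of any of these in the members' values was not tested.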

How the data were processed

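RNA of the LV was sequenced in 8 libraries, 4 per group. The authors deposited 1 table of whole-number read counts per gene, not normalized, whose columns were all used. According to the submitters' processing notes, reads were trimmed with Trim Galore 0.4.4, aligned to GRCm38 with STAR 2.5.4b and counted with featureCounts. How strand and reads with several alignments were counted is not given in the sources used here. The labels name rRNA depletion and the methods of the study name poly-A selection, so the RNA class is uncertain. Genes that reached a CPM of 1 in 2 or more libraries entered edgeR 4.0.16 in R 4.3.3 (glmQLFit and glmQLFTest, a quasi-likelihood F test, with TMM factors and no covariates), with Benjamini-Hochberg adjustment over all 13542 genes. A call needed FDR below 0.1 and a log2 fold change past 0.585 either way. Log2 normalized CPM used a prior count of 2. Lengths and positions came from a later GENCODE release (GRCm38) than the release the study named for its counts. Counts and lengths may therefore rest on different exons. Replicate numbers came from the library names. The test was checked on simulated data. Alternatives included the likelihood ratio test, DESeq2 1.42.0, other scalings and filters, a replicate block and each library left out. Named were the members, *Flt1*, preset genes of energy transfer, other genes of those lists with an unadjusted p under 0.05, and the 3 genes most correlated with each of 4 members. The members and lists were chosen with earlier results of these data known. A few single genes covered by this rule are not reported here.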

Additional observations from a re-analysis of the deposited data

Results flagged for a closer look

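Each group of 4 libraries was searched for a library far from the other 3, over 30 groups of values of the members and their ratios, and 3 were found. Chance alone flags about 1 in 20 groups. *Ckb* in dVEGFR1TK2 library 4 was at 100.3 normalized CPM, against 79.2 to 82.2 in the other 3 libraries of that group. The ratio of *Slc25a4* to *Ckmt2*, scaled by exon length, was 118% in dVEGFR1TK2 library 2 and 143% to 146% in the other 3. The ratio of *Ak1* to *Ckm* was 17.8% in dVEGFR1TK2 library 3 and 23.1% to 23.7% in the other 3. The causes were not tested.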

How the results depend on the processing

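None of the 7 tested members was called in any of 16 alternative fits. Their lowest FDR was 0.732, for *Ckm* over the alternatives. The log2 fold change of *Ckm* ran from -0.23 without WT2 library 2 to 0.11 without WT2 library 3, that of *Slc25a4* from -0.13 to 0.15, with the opposite sign in 5 of 16, and that of *Ckmt2* from -0.05 to 0.19. The number of correlated pairs fell from 5 to 1 with total counts, and the cause was not tested. Over all genes, 1 was called in the main test, 53 by the likelihood ratio test, 32 by DESeq2, 23 without the filter, and 1 to 3 with 1 library left out (2 without WT2 library 1, 3 without WT2 library 2 and 3 without WT2 library 4); none was a member. Transcript length, an alternative added after seeing the data, changed ratios between members by over 1.5 times for *Ckmt2* per *Ckm* (1.58, against 0.670 with the shortest coding transcripts), *Ckb* per *Ckm* (1.85 times higher with the longest), *Ckmt1* per *Ckmt2* (1.54 and 1.64 times higher with the longest and shortest) and *Ak1* per *Ckm* (0.540 times with the shortest), and no comparison between groups. The library names do not say what libraries with the same replicate number share. The r of their deviations was -0.03, 0.03, 0.34 and -0.06, and 1 of 4 correlated best with its own number. These values cannot decide whether the numbers mark a pairing. With the replicate block, *Ckm* was at -0.06, *Slc25a4* at 0.01, and 0 members and 1 gene in all were called. Among the members, depth limits *Ckmt1*. With 4 libraries per group, the intervals of *Ckm*, *Slc25a4* and *Ckmt2* leave room for changes of up to about the size a call needs.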
